A study of Mus musculus with 24 samples.

Results

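The Zfp genes numbered 600 to 999 are 171 of the 21883 protein-coding genes of the RefSeq table for assembly GRCm38.p6 that lie on chromosomes 1 to 19, X and Y. They were chosen by symbol alone, as every symbol made of Zfp and a 3-digit number beginning with 6, 7, 8 or 9, and no measured value enters that rule. Chromatin immunoprecipitation and sequencing measured H3K9ac, the acetylation of histone H3 on lysine 9 that marks the promoters of active genes, in mouse embryoid bodies, the aggregates that embryonic stem cells form as they begin to differentiate. All bodies were at day 5, of strain C57BL/6. The 4 null libraries came from the Gcn5-/- clones 4_C2 and 6_C4 and the 4 fx/fx libraries from the Gcn5fx/fx clones 4_1 and 6_1, which keep a floxed Gcn5 gene, with 2 replicates per clone. Clones 6_C4 and 6_1 form isolate pair 6, and clones 4_C2 and 4_1 form isolate pair 4, so each genotype rests on 2 clones. Gcn5, the product of Kat2a, is a histone acetyltransferase for which H3K9 is a known substrate.

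Most genes with Zfp names encode C2H2 zinc finger proteins, in which repeated fingers each hold a zinc ion and contact a few bases of DNA. Many also carry a KRAB domain, which recruits the co-repressor TRIM28 (KAP1) and, through it, the H3K9 methyltransferase SETDB1. KRAB zinc finger proteins are known in mouse embryonic stem cells and embryos for silencing endogenous retroviruses and other transposable elements, and their genes lie in clusters that have grown by duplication. The symbols cover KRAB and other zinc finger genes alike, and the proteins themselves were not analysed here.

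The deposited lists give the start and end of each called peak and nothing of its height. A gene was said to have a peak in a library when a called peak overlapped, by at least 1 bp, a window of 1000 bp either side of either annotated gene end. The covered length is the number of base pairs of those windows under peaks. The lists held 14947 and 12041 peaks for 4_C2, 18932 and 17849 for 6_C4, 15315 and 13260 for 4_1, and 20809 and 18477 for 6_1 (replicates 1 and 2 of each clone). Pair 6 lists were longer than pair 4 lists in every library, and the list of 4_C2 replicate 2 was the shortest of all. Read depth is unknown, so a shallower library and less acetylated chromatin cannot be told apart. Kat2a itself had a peak at an end in all 8 libraries, which says nothing of the deletion. Of 24 marker genes, Sox2 of pluripotent cells, Fgf5 and Pou3f1 of the epiblast, Nes of the neural lineage and Tal1 of blood had a peak in all 8 libraries. The 4 mesoderm and 3 endoderm markers and 4 of 5 pluripotency markers had one in 1 to 7 libraries, as did Otx2, Sox1, Pax6 and Kdr. Gata1 had none, nor did Myod1, Alb or Cd3e, which mark skeletal muscle, liver and lymphocytes.

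The promoters below are printed because they stand for the patterns that follow. Each is the 250 bases before the RefSeq start (GRCm38.p6, which is mm10), written 5′ to 3′ on the gene's strand, with CG dinucleotides in capitals. Zfp966 (chr2:175931101-175931350, minus strand) had no peak in any library, and Zfp971 (chr2:178023034-178023283, plus strand), from the same stretch of chromosome 2, had a peak in 7.

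Zfp966: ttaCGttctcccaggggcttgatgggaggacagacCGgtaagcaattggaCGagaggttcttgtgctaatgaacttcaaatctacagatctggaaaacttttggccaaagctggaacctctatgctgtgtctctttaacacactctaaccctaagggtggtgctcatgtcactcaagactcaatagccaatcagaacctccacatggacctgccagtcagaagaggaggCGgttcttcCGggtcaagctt
Zfp971: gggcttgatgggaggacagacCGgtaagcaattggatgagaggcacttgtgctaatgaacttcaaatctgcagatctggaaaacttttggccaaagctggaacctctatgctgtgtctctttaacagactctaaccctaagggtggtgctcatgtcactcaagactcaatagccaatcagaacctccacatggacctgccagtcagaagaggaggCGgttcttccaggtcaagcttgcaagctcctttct

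Zfp943 (chr17:21962309-21962558, plus strand) and Zfp758 (chr17:22361213-22361462, plus strand) are a near-identical pair with peaks in all 8 libraries.

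Zfp943: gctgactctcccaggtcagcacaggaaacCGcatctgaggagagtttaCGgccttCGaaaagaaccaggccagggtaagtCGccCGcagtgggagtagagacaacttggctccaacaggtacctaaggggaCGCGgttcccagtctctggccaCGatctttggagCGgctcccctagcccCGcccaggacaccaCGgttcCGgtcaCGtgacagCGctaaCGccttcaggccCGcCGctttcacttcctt
Zfp758: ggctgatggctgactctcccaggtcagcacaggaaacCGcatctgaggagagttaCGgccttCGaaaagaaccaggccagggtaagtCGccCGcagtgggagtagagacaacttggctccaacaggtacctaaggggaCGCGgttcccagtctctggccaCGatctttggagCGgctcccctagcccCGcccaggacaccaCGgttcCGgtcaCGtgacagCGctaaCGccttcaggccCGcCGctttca

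Zfp866 (chr8:69774912-69775161, minus strand) had the smallest p among the Zfp genes for a difference of region width between genotypes, and Zfp819 (chr7:43606919-43607168, plus strand), which has been tied to genome integrity in mouse spermatogonia, had a peak in 6 libraries.

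Zfp866: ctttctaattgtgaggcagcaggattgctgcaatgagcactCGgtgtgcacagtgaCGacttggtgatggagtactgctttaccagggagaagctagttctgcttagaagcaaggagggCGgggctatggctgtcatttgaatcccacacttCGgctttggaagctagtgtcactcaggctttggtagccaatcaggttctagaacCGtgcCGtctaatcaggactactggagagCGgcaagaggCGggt
Zfp819: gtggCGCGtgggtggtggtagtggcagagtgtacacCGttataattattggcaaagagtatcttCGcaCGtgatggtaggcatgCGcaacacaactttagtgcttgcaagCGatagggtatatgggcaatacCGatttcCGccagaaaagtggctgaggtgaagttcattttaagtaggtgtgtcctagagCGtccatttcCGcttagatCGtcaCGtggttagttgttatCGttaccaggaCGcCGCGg

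Acetylated H3K9 was found at most of the high-numbered Zfp genes. Of the 171, 138 (80.7%) had a peak at a gene end in at least 1 library, against 62.2% of all genes. A peak was called in all 8 libraries for 109 (63.7%, all genes 45.3%), in 1 to 7 libraries for 29 (17.0%, all genes 17%) and in none for 33 (19.3%, all genes 37.8%). Lower-numbered Zfp genes, the 196 protein-coding genes named Zfp1 to Zfp599, were marked more often still, with 71.4% in all 8 libraries and 9.69% in none. The number of high-numbered genes with a peak was 126 and 112 in 4_C2, 130 and 125 in 6_C4, 128 and 124 in 4_1, and 133 and 131 in 6_1. That is 123 ± 7.80 genes in null libraries and 129 ± 3.92 in fx/fx libraries (mean ± SD, n = 4 each) with both pairs pooled. Within pair 6 both null libraries were below both fx/fx libraries, and within pair 4 the genotypes overlapped. All genes went the same way, with 12498 and 12327 marked in 6_C4, 11753 and 10394 in 4_C2, 12911 and 12631 in 6_1 and 12148 and 11290 in 4_1. The mean difference for Zfp genes, null minus fx/fx, was -5.75 genes per library, but -2 without 4_C2 replicate 2 and -1 with lists shortened to equal length by width.

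**Figure D1:**
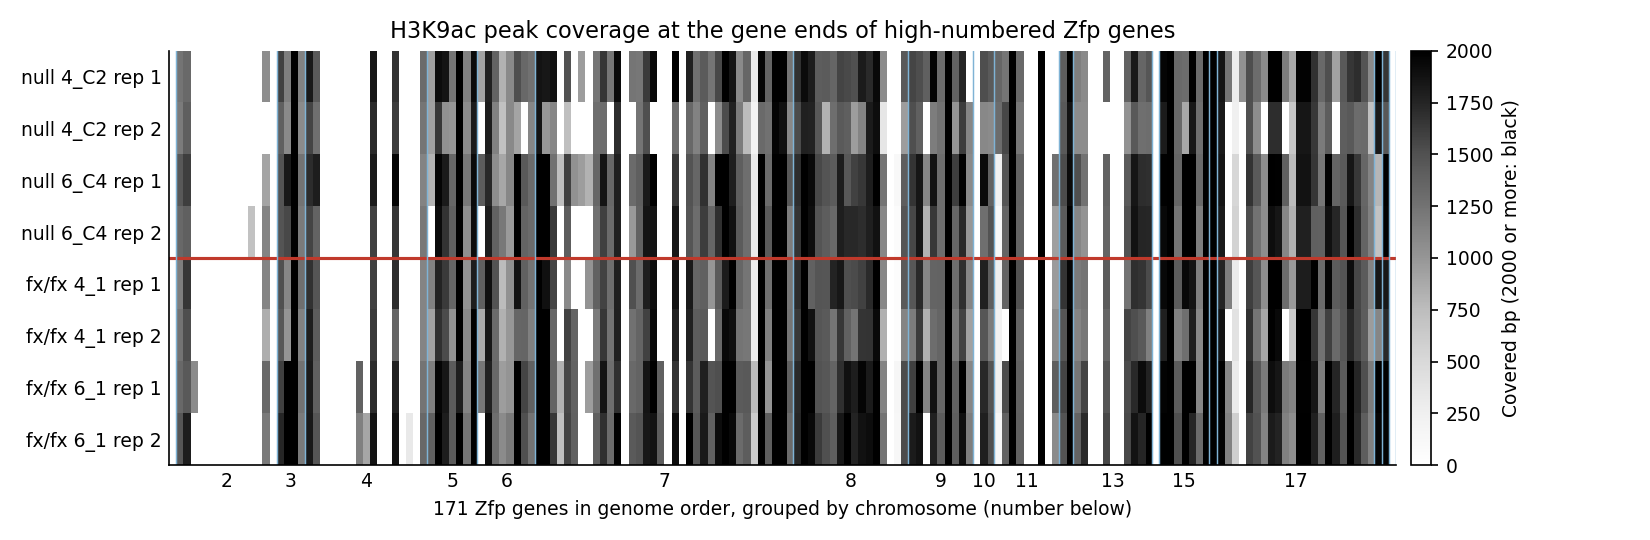
Covered base pairs in the gene-end windows of the 171 genes, in genome order from left to right, in the 4 null libraries (upper rows) and the 4 fx/fx libraries (lower rows). White is no peak. White columns run through all 8 libraries on chromosomes 2 and 4, and the row of 4_C2 replicate 2 has the most white, with 112 genes marked.

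**Figure D2:**
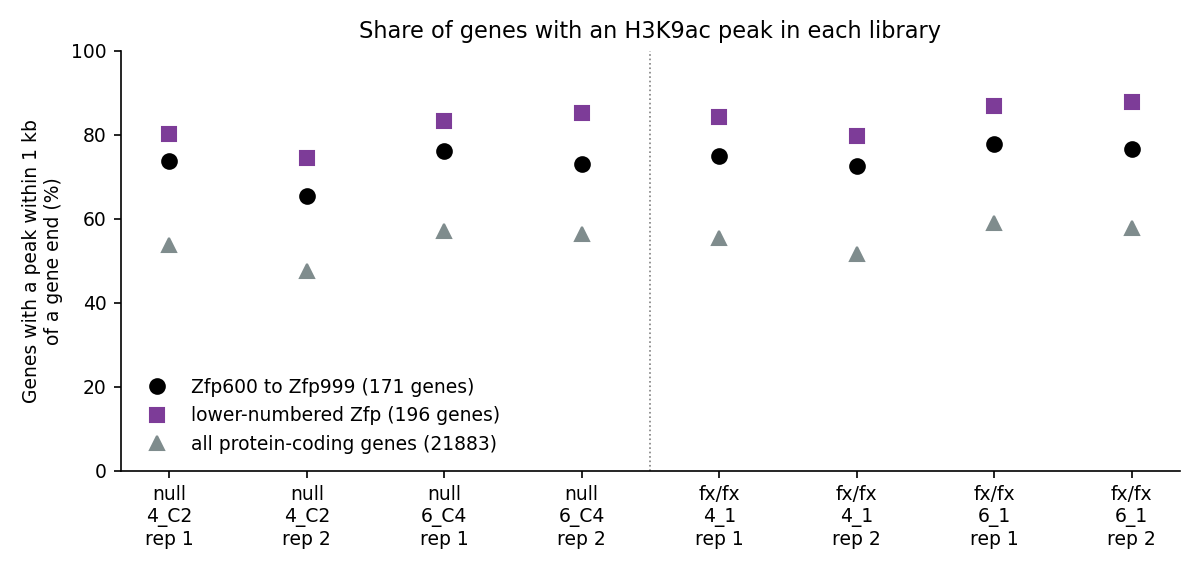
Percent of genes with a peak within 1 kb of a gene end in each null library (left) and each fx/fx library (right), for high-numbered Zfp genes (circles), lower-numbered Zfp genes (squares) and all protein-coding genes (triangles). In each of the 8 libraries the high-numbered genes lie between the other sets, from 65.5% to 77.8%.

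Peaks lay at the start of the genes. RefSeq promoter entries gave a strand for 148 of the 171, and at least 1 library had a peak at an end of 121 of these. The peak was at the start alone for 104 (86.0%), at both ends for 16 (13.2%) and at the other end alone for Zfp787. Over all 10857 such genes the shares were 77.4%, 19.7% and 2.92%. The outermost annotated end was not always the start in use: Zfp787 itself had a peak in all 8 libraries within 1000 bp of the start in its promoter entry, which lies inside its annotated span.

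Genes known for silencing retroelements had a peak at an annotated end in all, some or none of the libraries. Zfp809, which binds the primer binding site of murine leukaemia virus type retroviruses and starts their silencing, had a peak in all 8 libraries. So did Zfp932, a KRAB zinc finger gene known to repress endogenous retroviruses of the ERVK class in mouse embryonic stem cells. Zfp819 covered 1230, 0, 1126 and 1343 bp in null libraries (4_C2 replicates 1 and 2, then 6_C4 replicates 1 and 2) and 998, 0, 1484 and 1381 bp in fx/fx libraries (4_1, then 6_1). Its missing peaks were those of replicate 2 of both pair 4 clones, 1 of each genotype. Zfp638, whose human counterpart ZNF638 silences unintegrated retroviral DNA, lacked a peak at its ends in 4_C2 replicate 2 alone, with 1329, 0, 1443 and 1355 bp in null libraries and 1381, 1346, 1569 and 1505 bp in fx/fx libraries in the same order. At the start in its promoter entry, Zfp638 had a peak in all 8. Zfp708, known to bind a retrotransposon family in the mouse, had none at its ends but had one at a listed start inside its span in all 8.

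Of 20 genes picked for a role known in mouse or human, 15 had a peak in all 8 libraries, beside 63.7% of the 171 genes and 45.3% of all genes. Zfp706, which acts in the exit of mouse embryonic stem cells from self-renewal, Zfp644, a partner of the H3K9 methyltransferases G9a and GLP, and Zfp622, whose human counterpart acts in maturation of the large ribosomal subunit, were among them. Besides Zfp819, Zfp638 and Zfp708, the exceptions were Zfp750, a regulator of epidermal differentiation, with a peak in 6 libraries, and Zfp652, with none. The nearest peak to the span of Zfp652 lay 2102 bp away.

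The unmarked genes were gathered on chromosomes 2 and 4, which held 18 of the 33. Neighbouring genes were called a cluster when each gap between their spans was at most 250000 bp and at least 3 lay together, which gave 16 clusters with 85 genes. A peak was called in all 8 libraries for 56 of the 85 (65.9%) and for 53 of the 86 outside clusters (61.6%). Every member was marked in all 8 libraries in the chromosome 7 cluster from Zfp771 to Zfp646 (9 genes), the chromosome 8 clusters from Zfp868 to Zfp866 (5 genes) and from Zfp709 to Zfp961 (4 genes), the chromosome 6 cluster from Zfp786 to Zfp746 (4 genes) and the chromosome 7 cluster from Zfp628 to Zfp784 (3 genes). The 11 genes of the chromosome 4 cluster from Zfp992 to Zfp933 were marked in 31.8% of gene and library combinations, against 86.5% for the 13 genes from Zfp677 to Zfp946 on chromosome 17. Other genes in those 2 spans were marked in 6.25% (2 genes) and 60.7% (7 genes). In the fully marked clusters, the other genes reached 80.7% (22 genes, Zfp771 to Zfp646), 100% (3, Zfp786 to Zfp746) and 62.5% (7, Zfp628 to Zfp784). The chromosome 8 clusters held no other gene.

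With gaps of up to 1 Mb, chosen after the chromosome 2 genes were seen to lie farther apart, 17 clusters held 109 genes. The 10 genes from Zfp831 to Zfp931 on chromosome 2, over 3.48 Mb, then had 0 marked in all 8 libraries, 2 in 1 to 7 (Zfp971 in 7 and Zfp970 in 1) and 8 in none. The 15 genes from Zfp990 to Zfp933 on chromosome 4, over 2.34 Mb, had 3 marked in all 8, 3 in some and 9 in none. These clusters thus held 17 of the 33 unmarked genes among 25 members, and the other 146 genes held 16.

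**Figure D3:**
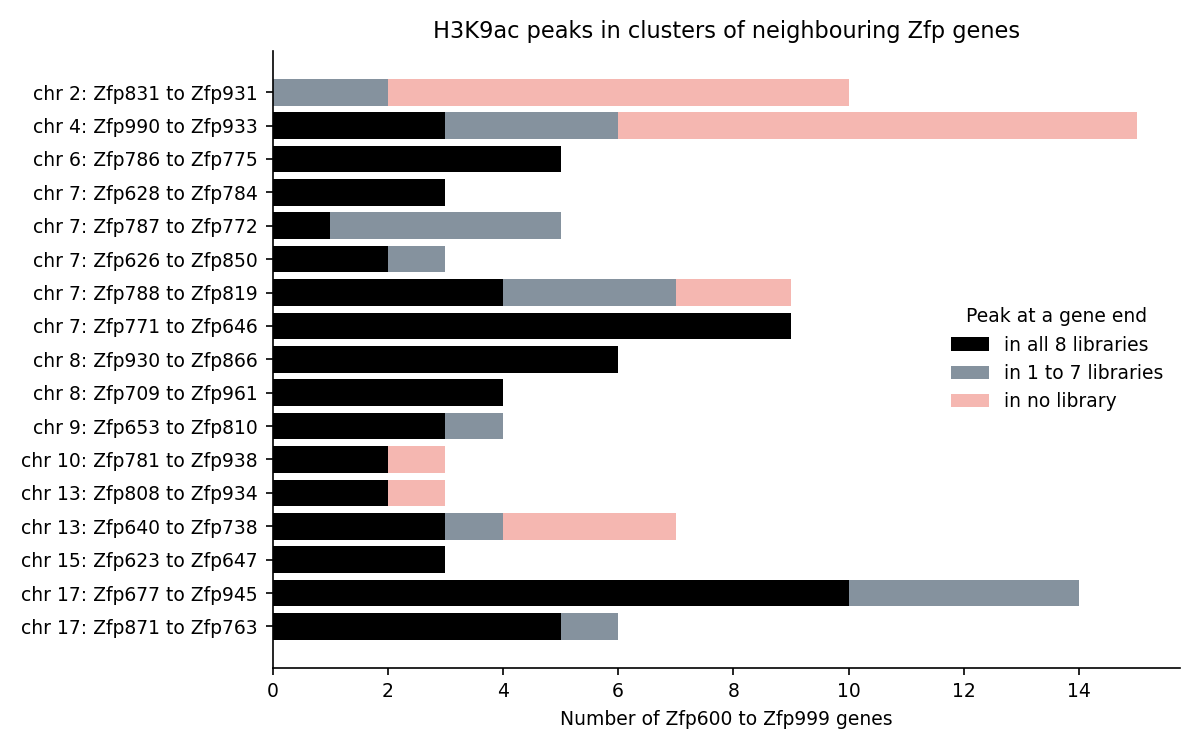
Number of high-numbered Zfp genes with a peak at a gene end in all 8 libraries (black), in 1 to 7 (grey) and in none (pink), for each of 17 clusters of neighbouring genes with gaps of up to 1 Mb. The clusters of chromosomes 2 and 4 at the top have 8 and 9 unmarked genes, and 6 clusters with 30 genes are black throughout.

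Of the 33 genes with no peak at an annotated end, 22 had none anywhere in the gene either, and 14 of those 22 were on chromosome 2 or 4. The other 11 had a peak inside the gene in at least 1 library, and Zfp984, Zfp790, Zfp708, Zfp791 and Zfp759 had one in 7 or 8. For 7 of the 33, the peak lay within 1000 bp of a start listed in the promoter table. By listed starts, 127 of the 148 genes with an entry had a peak in at least 1 library and 98 had one in all 8. The shares of all genes by listed starts are not given here, and those by annotated ends are no background for these counts.

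Promoter sequence differed with the number of marked libraries. Marked means here and below a peak at an annotated gene end, while the sequence is that of the listed start. Of the genes marked in none, 7 had a peak at a listed start. The 300 bases around the start (250 before it and 50 after) held a median of 15 CG dinucleotides in the 93 genes marked in all 8 libraries, 9 in the 28 marked in 1 to 7 and 5 in the 27 marked in none. Over all genes the medians were 23, 15 and 3, so the marked Zfp genes had CG-poorer promoters than marked genes in general. Lower-numbered Zfp genes had medians of 16.5, 11 and 10, so this was not particular to the high-numbered ones. At few CG dinucleotides, a larger share of Zfp genes than of all genes was marked. With 6 to 10, a peak in all 8 libraries was called for 28 of 47 Zfp genes (59.6%) and 26.2% of all 2109 genes, and with 0 to 5 for 5 of 28 (17.9%) and 5.97% of 5715. With 21 or more, the shares were 94.1% of 34 and 80.7% of 5884. Zfp866 has 13 CG in 300 bases and Zfp966 has 5.

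**Figure D4:**
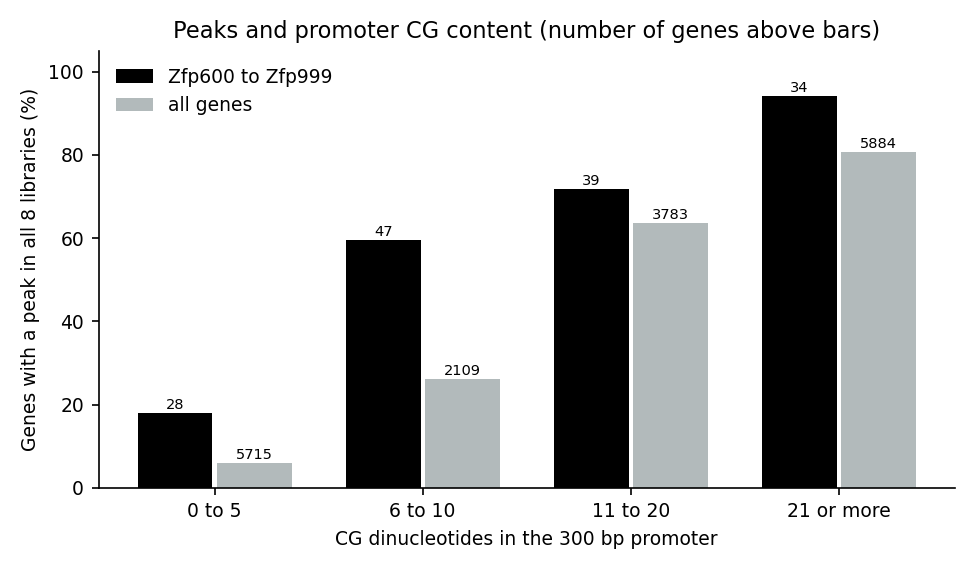
Percent of genes with a peak in all 8 libraries by number of CG dinucleotides in the 300-base promoter, for high-numbered Zfp genes (black) and all genes (grey), with the number of genes above each bar. The share climbs with CG content in both sets, and the black bar is the higher in each of the 4 bins.

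The letters CCAAT, searched on both strands, were in 91 of the 148 Zfp promoters (61.5%) and in 39.2% of all 17491 promoters of the same length. They were in 50 of the 93 marked in all 8 libraries and in 21 of the 27 marked in none. In the Zfp966 and Zfp971 sequences above they can be read in the stretch agccaatcagaa. GGGCGG was in 43.2% of Zfp promoters and 46.3% of all, CACGTG in 10.1% and 7.91%, and AAGATGG in 7.43% and 6.35%.

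Promoters of genes with no peak at an annotated end often held sequence repeated among the RefSeq promoters. Reads were single and 50 bases long per the labels, and a 50-base stretch was called repeated when it also began at another position among the RefSeq promoters. At least 1 repeated stretch was found in 8 of the 93 promoters marked in all 8 libraries (8.60%), in 8 of the 28 marked in 1 to 7 (28.6%) and in 16 of the 27 marked in none (59.3%). Over all genes those shares were 0.708%, 2.95% and 23.7%. Of the 16, Zfp984, Zfp976 and Zfp936 had a peak at their listed start, in 8, 5 and 4 libraries in that order. More than 90% of the stretches were repeated in 8 Zfp promoters, of which 7 had no peak in any library and Zfp970 had a peak in 1. Over all genes, 492 of 497 such promoters belonged to genes with no peak in any library. Of the 8 Zfp promoters, 6 lay in the chromosome 2 cluster from Zfp831 to Zfp931, where 9 genes had a promoter entry. The 250 bases of Zfp966 equal those of Zfp967 and differ from those of Zfp971 by 33 single-base edits, which include the offset of their starts. In Zfp971, 48.6% of stretches were repeated.

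Repeated promoters were marked on chromosome 17. Zfp943 and Zfp758 differ by 16 single-base edits in 250 bases, most of which are the offset of their starts. Of their stretches, 82.1% and 79.3% are repeated. With Zfp942 and Zfp944, which start beside them on the opposite strand, all 4 had a peak in all 8 libraries. How reads with several matches were handled is not stated in the sources, and the part of repeated sequence in the missing peaks was not tested.

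Loss of Gcn5 was compared next, first by presence of peaks. No high-numbered Zfp gene had a peak in all 4 null libraries and no fx/fx library (background 0% of all genes), and none had a peak in all 4 fx/fx libraries and no null library (background 0.0457%). A peak in at least 2 fewer null than fx/fx libraries was seen for Zfp750, Zfp821, Zfp977, Zfp981, Zfp677 and Zfp954 (6 genes, 3.51%, background 2.48%), and in at least 2 more null libraries for Zfp773 (0.585%, background 0.567%). These shares lie near the background.

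Within pair 4, Zfp750 and Zfp821 had a peak in both fx/fx libraries and neither null library (1.17%, background 1.14%). Zfp750 covered 0 and 0 bp in 4_C2 and 1270 and 944 bp in 6_C4, against 968 and 1061 bp in 4_1 and 1404 and 1073 bp in 6_1. The peak was thus missing in 1 of the 2 null clones only, and the exact permutation test over the 8 libraries, two-sided, gave p = 0.200 (adjusted p = 1). Zfp821 is at the edge of its window, with 0, 0, 108 and 61 bp in the null libraries and 48, 43, 151 and 123 bp in the fx/fx libraries. The acetylated region that the Zfp821 window clips was itself in all 8 lists. With 4_C2 replicate 1 left out, 12 genes had peaks in both 4_1 libraries and not in 4_C2 replicate 2, the shortest list. The share of all genes with that library left out is not given here.

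Within pair 6, Zfp977, Zfp981 and Zfp677 had a peak in both fx/fx libraries and neither null library (1.75%, background 0.704%), and no gene was gained in the null clone of pair 6 (background 0.178%) or pair 4 (background 0.233%). Zfp977 covered 0 bp in all 4 null libraries and in both 4_1 libraries, and 1379 and 1408 bp in 6_1. Zfp981 had the same pattern at its outer end, with 1372 and 1156 bp in 6_1 and 0 bp elsewhere, but at the start of its promoter entry it had a peak in all 4 null libraries and in 3 of 4 fx/fx libraries. Zfp677 covered 1230, 0, 0 and 0 bp in null libraries and 1157, 0, 1097 and 1137 bp in fx/fx libraries. The groups overlapped at each of these genes, and the exact permutation p was 0.429 for Zfp977 and Zfp981 and 0.486 for Zfp677. The count of 3 became 6 without 6_C4 replicate 1 and 5 without 6_1 replicate 1, and the matching shares of all genes are not given here.

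The neighbours Zfp954 and Zfp773 on chromosome 7 went in opposite directions. Zfp954 covered 0, 0, 1036 and 0 bp in null libraries and 0, 1357, 1372 and 1376 bp in fx/fx libraries (exact permutation p = 0.143). Zfp773 covered 951, 0, 948 and 0 bp in null libraries and 0 bp in every fx/fx library (exact permutation p = 0.429). Both null peaks of Zfp773 were in replicate 1. The smallest p that 4 against 4 libraries allow is 0.0286, every adjusted p was 1 over the 13618 genes tested, and 3 of the 138 Zfp genes (2.17%) had an unadjusted p under 0.05, against 1.60% of all genes tested.

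A single library accounted for many of the incomplete patterns. Of the 11 Zfp genes with a peak in 7 of 8 libraries, 8 (72.7%) lacked it in 4_C2 replicate 2, which was also the library missing in 72.3% of the 977 genes of that kind in the whole table. Without that library, 117 Zfp genes had a peak in every other one, and the matching share of all genes is not given here. Between isolate pairs, no gene had a peak in all 4 pair 6 libraries and no pair 4 library (background 0.626%) or in all 4 pair 4 and no pair 6 library (background 0.0228%).

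Width was compared for acetylated regions, made by merging peaks of all libraries that overlap. The width of a region in a library is the number of base pairs covered by its peaks there. The test used limma on log2 widths centred on each library's median, with isolate pair as a covariate, over the 10171 regions found in all 8 lists. These hold 110 of the Zfp genes on 107 regions. A gene was given the region with the largest covered length among those that touch either of its end windows. That region is thus not always at the gene start. For Zfp846, Zfp786, Zfp771 and Zfp879, for example, it lay at the other end. In uncentred base pairs the median Zfp region averaged 1906 bp over the null and 2094 bp over the fx/fx libraries, and the median of all regions 2188 bp over the null and 2400 bp over the fx/fx libraries. After centring, the median log2 difference, null minus fx/fx, was 0.013 for Zfp regions and 0.016 for all, and without centring it was -0.12 for both.

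In neither direction did the width of any Zfp region differ between genotypes at a limma adjusted p under 0.05 (background 0% in both directions). At an unadjusted p under 0.05, 4 were narrower and 4 wider (7.48% of 107, background 6.93%). All null libraries lay below all fx/fx libraries in centred width at 1 Zfp region (0.935%, background 0.954%) and above them at 4 (3.74%, background 1.51%). In the limma interaction test of the genotype effect between isolate pairs, 0 Zfp regions were called (background 0%), with 6 of 107 (5.61%) at an unadjusted p under 0.05, against 6.66% of all regions.

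Among Zfp regions, the smallest p belonged to Zfp866, a gene of the chromosome 8 cluster. Its region (chr8:69771623-69775799) spanned 1646 and 1413 bp in 4_C2 and 2582 and 2691 bp in 6_C4, against 2094 and 2332 bp in 4_1 and 3928 and 3921 bp in 6_1. The null libraries were narrower within each pair, while the groups overlapped when the pairs were pooled. The log2 difference was -0.42 ± 0.085 (SE), with an adjusted p of 0.625 by limma, and no region tested had a smaller one. Adjusted values can be tied between regions, so this does not rank Zfp866 first among all regions. By covered length in the gene-end windows the difference was -0.15, and for Zfp689 and Zfp959 it was -0.071 and -0.045 in that order. Zfp689 covered 2001 bp in every fx/fx library, the most that a single window can hold. Of the 5 genes of that cluster, 4 had a difference below 0, and the median was -0.22. Over all 560 tested regions of chromosome 8, 62.5% had a difference below 0, and the median was -0.043.

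Zfp959 had the most negative estimate, -0.47 ± 0.20 (SE), from 1725, 709, 1885 and 1939 bp in the null libraries and 1803, 2070, 2395 and 2658 bp in the fx/fx libraries. The 709 bp of 4_C2 replicate 2 stood below the rest, and without that library the difference was -0.22. Zfp935 (-0.37 ± 0.14) spanned 1080, 1066, 1252 and 1021 bp in null libraries and 1239, 1218, 1874 and 2107 bp in fx/fx libraries. Its wide values were those of 6_1 alone. Zfp689 (-0.37 ± 0.12), Zfp740 (-0.28 ± 0.20) and Zfp869 (-0.23 ± 0.15) followed, with adjusted p between 0.714 and 0.770 for these 5 genes.

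In the other direction, the Zfp622 region spanned 3077, 3358, 4220 and 3618 bp in the null libraries and 3091, 2791, 3495 and 3402 bp in the fx/fx libraries, a log2 difference of 0.29 ± 0.10. Zfp641 spanned 1467, 1328, 1331 and 1211 bp in the null libraries and 1263, 1087, 1116 and 1348 bp in the fx/fx libraries (0.29 ± 0.094). Both overlapped between genotypes in base pairs. On the centred log2 scale of the test, all null libraries of Zfp622 (0.51, 0.90, 0.81 and 0.62) lay above all fx/fx libraries (0.46, 0.40, 0.46 and 0.36). Zfp629 (0.25 ± 0.096), Zfp644 (0.23 ± 0.094), Zfp710 (0.21 ± 0.11) and Zfp982 (0.19 ± 0.10) came next, and the adjusted p of these 6 genes lay between 0.714 and 0.724.

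Among genes with known roles, 15 were tested, 7 had a difference below 0, and Zfp622 and Zfp644 had an unadjusted p under 0.05. Over all regions, 45.1% had a difference below 0 and 6.93% had an unadjusted limma p under 0.05. Zfp809 spanned 2539, 1176, 1923 and 1645 bp in the null libraries and 1356, 1290, 2584 and 2622 bp in the fx/fx libraries. Its log2 difference was 0.054 ± 0.22, from 0.53 in pair 4 and -0.42 in pair 6, and the interaction had an adjusted p of 0.691 by limma. Zfp932 had 0.095 ± 0.15 and Zfp706 had -0.097 ± 0.12.

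**Figure D5:**
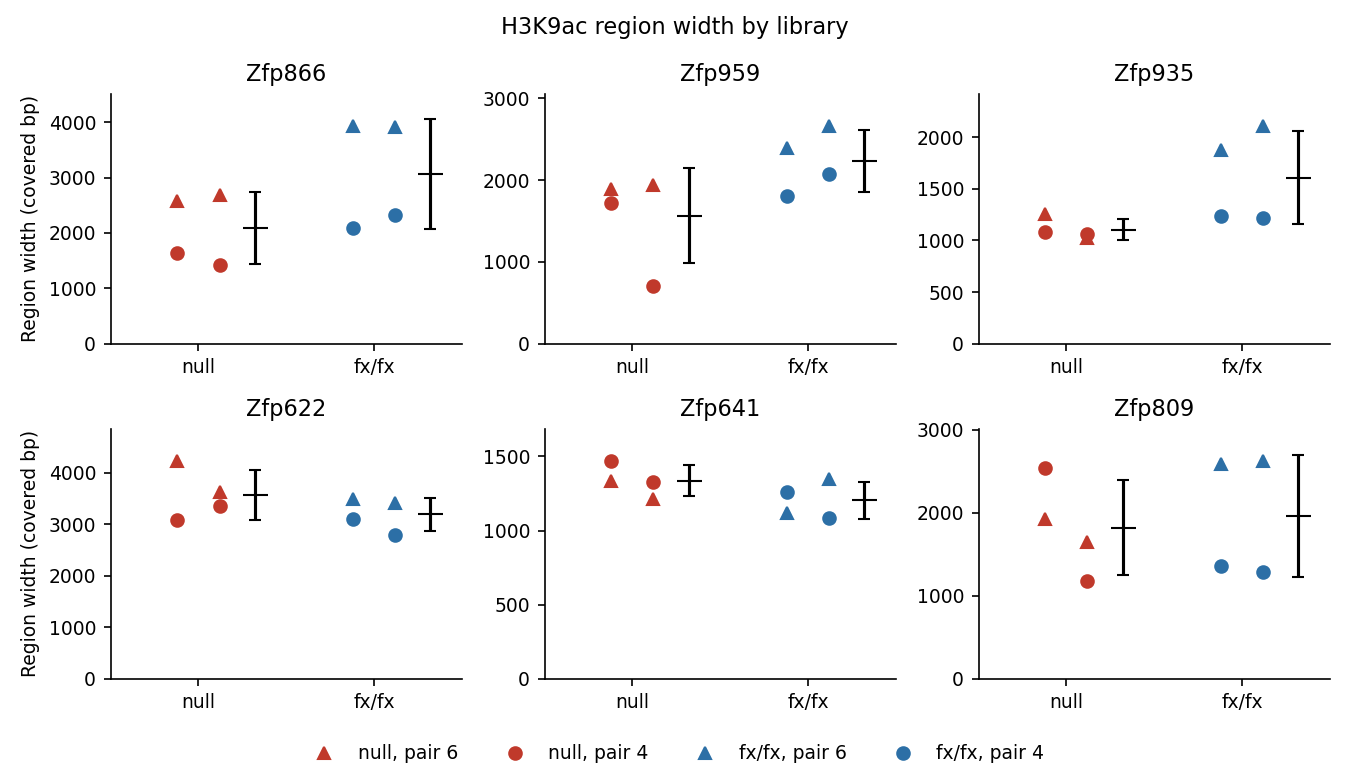
Region width in covered base pairs for 6 genes, with the null libraries left (red) and the fx/fx libraries right (blue), pair 6 as triangles and pair 4 as circles, and the mean ± SD of the 4 libraries as a bar. Zfp866 is narrower in the null clone of each pair, Zfp935 is wide in 6_1 alone, and Zfp809 is widest in 6_1 and in 1 library of 4_C2.

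The isolate pairs were compared in the same fit. Zfp866, Zfp639 and Zfp653 were wider in pair 6 than in pair 4 at a limma adjusted p under 0.05 (3 of 107, background 4.32%), and none was narrower (background 2.52%). Zfp639 spanned 2804 and 2545 bp in 6_C4 and 3076 and 3102 bp in 6_1, against 1914 and 1451 bp in 4_C2 and 1815 and 1827 bp in 4_1, with no overlap between pairs (log2 difference, pair 6 minus pair 4, 0.46 ± 0.081, adjusted p = 0.0134). Zfp653 averaged 2478 ± 183 bp in pair 6 and 1561 ± 144 bp in pair 4 (SD, n = 4 each; 0.40 ± 0.084, limma adjusted p = 0.0231), and it shares its end window with Ecsit. Zfp866 differed by 0.54 ± 0.085 (adjusted p = 0.00767), while the median over the regions of chromosome 8 was 0.15 and over all regions -0.019. The part of that chromosome-wide value in the Zfp866 difference was not tested. Without centring on the library medians, 23 Zfp regions passed as wider in pair 6. The uncentred median log2 difference was 0.25 over all regions and 0.25 over Zfp regions. By lengths in the gene-end windows, 18 of 128 Zfp genes with a peak in at least 4 libraries passed as narrower. The shares of all regions and all genes that passed in these fits are not given here.

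Among Zfp genes marked in all 8 libraries, the widest regions were those of Zfp608, with 6094 ± 856 bp in the null libraries and 6833 ± 536 bp in the fx/fx libraries (log2 difference -0.037 ± 0.11), Zfp740, and Zfp668, which shares its region with Zfp646. Zfp668, whose human counterpart acts in DNA repair, had 4033 ± 489 bp in the null libraries and 4999 ± 793 bp in the fx/fx libraries. The narrowest of the same genes were Zfp994, with 781 ± 92.1 bp in the null libraries and 941 ± 221 bp in the fx/fx libraries, Zfp808 and Zfp764 (SD, n = 4 each).

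The machinery that KRAB zinc finger proteins recruit was described from a list of 27 genes, such as Trim28, Setdb1, the heterochromatin protein genes Cbx1, Cbx3 and Cbx5, and Atrx and Daxx, which load the histone variant H3.3. A peak was called in all 8 libraries for 23 of them, where all genes had 45.3%, and at no annotated end for Dnmt1, Dnmt3a and Tasor. Of the 24 tested for width, 0 were called by limma, 14 had a difference below 0 (45.1% of all regions did) and the median was -0.036, with the smallest unadjusted p at 0.0503.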

How the data were processed

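Day 5 embryoid bodies gave 8 H3K9ac libraries, used here, and 16 libraries of total H3 and input DNA, not used here. The authors deposited a peak list per library, with chromosome, start and end and no score. The unit is thus peak coordinates, deposited on mm10 and named per the submitters' processing notes, with Bowtie 1.1.2 and MACS 1.4.2. The sources used here state no calling threshold, control or multiple-match setting, and depth is unknown.

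Gene spans and promoters came from RefSeq (GRCm38.p6). 148 of 171 symbols matched a promoter entry. Peak presence was counted in windows of 1000 bp around both ends of each span. Merged regions in all 8 lists were tested with limma 3.58.1 (R 4.3.3), adjusted by Benjamini-Hochberg over all 10171, after a test on simulated data. Single genes were tested by two-sided exact permutation over 70 splits. The labels call the 4 experiments independent without naming separate cultures, so p-values measure the spread between these libraries. The rule for the genes reads symbols only, but it was proposed, and the gene lists and tests were chosen, with earlier results of these data known. Genes were named by largest difference between genotypes or isolate pairs, region width, or known role. Differences in width between replicates 1 and 2 of a clone were correlated between clones. Within isolate pairs the correlation was 0.11 for 4_C2 with 4_1 and 0.062 for 6_C4 with 6_1. Between clones of different pairs it lay between -0.026 and 0.027. Replicate numbers thus went together weakly within a pair, and the main fit has no term for this.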

Additional observations from a re-analysis of the deposited data

Results flagged for a closer look

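In 77 sets of 4 libraries of a genotype, 8 held a value far from the other 3. Chance gives about 1 in 20 sets, but that rate cannot be set against these, since Zfp677 and Zfp954 were named for uneven numbers of libraries with a peak. Zfp638 and Zfp819 covered 0 bp in 4_C2 replicate 2, against over 1000 bp in the other null libraries, and the Zfp764 region spanned 756 bp in that library, against 1284 to 1336 bp. Zfp677 covered 1230 bp in 4_C2 replicate 1 and 0 bp in the other null libraries, and 0 bp in 4_1 replicate 2 alone among fx/fx libraries. Zfp954 covered 1036 bp in 6_C4 replicate 1 alone among null libraries and 0 bp in 4_1 replicate 1 alone among fx/fx libraries. The Zfp618 region spanned 1680 bp in 4_1 replicate 1, below the other fx/fx libraries at 1852 to 1883 bp.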

How the results depend on the processing

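Of 226 alternative values for the main counts and medians, 21 moved. The shares of all genes that match the changed counts of genes are not given here. Genes lost in the null clone of pair 4 numbered 2, but 1 with windows of 500 or 2000 bp or an overlap of 200 bp, 4 with lists shortened to equal length by width, and 2 to 12 with 1 library left out, the 12 without 4_C2 replicate 1. Genes lost in pair 6 numbered 3, but 1 with equal-length lists, and 3 to 6 with 1 library left out, with 6 without 6_C4 replicate 1 and 5 without 6_1 replicate 1. Gained genes, 0 in each pair, numbered 1 in pair 4 with windows of 500 bp and 0 to 2 with 1 library left out, and in pair 6 numbered 2 with equal-length lists and 0 to 1 with 1 library left out. Equal-length lists gave 1 gene marked in pair 4 only, and leaving out 6_C4 replicate 2 gave 1 marked in pair 6 only, within 0 to 1. The mean difference in marked genes ranged from -8, without 6_C4 replicate 1, to -2. Uncentred widths gave a median log2 difference of -0.12 and 23 regions wider in pair 6. Gene-window lengths gave 18 genes narrower in pair 6, and leaving out 1 library gave 0 to 1 regions. The causes were not tested. With a replicate block the smallest adjusted p of a Zfp region for genotype was 0.729, with 0 called, and the block changed no other call. With a block for each isolate pair and replicate number, the smallest limma adjusted p for genotype was 0.717, with 0 Zfp regions called.

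Log2 width differences that changed sign gave, for Zfp608, a range of -0.15 to 0.067 with 1 library left out, above 0 without 6_C4 replicate 1 and, at 0.0090, without 6_1 replicate 1. For Zfp740 that range was -0.36 to 0.054, above 0 without 6_1 replicate 2. Zfp809 ranged from -0.21 to 0.19, below 0 without 4_C2 replicate 1 or either 4_1 library, and gave -0.082 uncentred. Zfp932 ranged from -0.060, without 4_C2 replicate 1, to 0.20 and gave -0.041 uncentred. Gene-window lengths gave 0.080 for Zfp706, 0.00038 for Zfp869 and -0.040 for Zfp932. Zfp706 covered 2001 bp, a full window, in every library, so its 0.080 comes from centring on the library medians alone. None of the 254 single-gene values passed an adjusted p of 0.05. Peak lists without heights limit these comparisons to presence and width.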
